A study of Homo sapiens with 9 samples.

Results

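The liver X receptors (LXRs) are nuclear receptors that sense oxysterols and switch on the removal of cholesterol from cells, and this report follows 10 of their genes in PC3 prostate tumors. The set holds both receptors, NR1H3 and NR1H2, together with ABCA1, ABCG1, APOE, PLTP, MYLIP, SREBF1, LPCAT3 and SMPDL3A. The 10 were chosen from results of the same libraries, in which several of them stood higher after treatment, and were found by gene symbol among the 16008 genes listed in both count tables. Their levels and calls against PBS come from the contrast behind that choice, so they are given as a description with no p-value, and the difference between the conjugates is the one tested for them. All 10 were listed, and all 10 passed the filter on low counts in each comparison.

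PC3 is a human cell line from a bone metastasis of prostate cancer. PC3 cells were grown under the skin of male NSG mice, a strain without T, B or NK cells that keeps host macrophages, fibroblasts and other stroma, so each library was bulk RNA from a tumor with its host tissue. Mice were 11 weeks old per the series' design text, which gives 90 mm3 as the tumor volume at randomization and 5 weekly cycles, values that the study's methods give for an earlier T-DXd experiment at a higher dose. For the experiment with both conjugates at the dose of these libraries the methods give a younger age, a larger volume and fewer cycles. The 3 groups of 3 libraries came from mice given PBS as vehicle, P-DXd (patritumab deruxtecan, directed at HER3) or T-DXd (trastuzumab deruxtecan, directed at HER2), each conjugate at 5 mg/kg by retro-orbital injection. Both conjugates carry the same payload, the topoisomerase I inhibitor DXd. Titles and treatment fields name opposite conjugates for all 6 treated libraries, and the names P-DXd-titled and T-DXd-titled used here follow the titles alone. All 6 were also compared with PBS as 1 group. Titles carry separate animal codes, but nothing else says that libraries came from separate mice, and p-values measure the spread between these libraries. Total counts ran from 54481702 to 125538606, with each PBS library deeper than each treated one.

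LXRs sit on DNA with a retinoid X receptor as partner, on direct repeats of the half-site AGGTCA that are spaced by 4 bases. With oxysterol bound they turn on ABCA1 and ABCG1, which export cholesterol to lipoprotein particles, and MYLIP, an E3 ligase that sends lipoprotein receptors for degradation. They also turn on SREBF1, which drives fatty acid synthesis. A second system, built on SREBF2, runs the other way: it raises cholesterol synthesis and uptake when sterol is scarce.

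Upstream sequences were taken from RefSeq on GRCh38.p14 for the 8 members with an entry, which were all but ABCG1 and SMPDL3A. They are shown for 3 members called higher with either conjugate, so that the letters can be read beside those levels. Each run ends at the base before the transcription start, and capitals mark the stretch nearest to AGGTCA, 4 free bases and AGGTCA on either strand. The runs lie at chr9:104928156-104928405 on the minus strand for ABCA1, chr6:16128836-16129085 on the plus strand for MYLIP and chr17:17836987-17837236 on the minus strand for SREBF1.
ABCA1: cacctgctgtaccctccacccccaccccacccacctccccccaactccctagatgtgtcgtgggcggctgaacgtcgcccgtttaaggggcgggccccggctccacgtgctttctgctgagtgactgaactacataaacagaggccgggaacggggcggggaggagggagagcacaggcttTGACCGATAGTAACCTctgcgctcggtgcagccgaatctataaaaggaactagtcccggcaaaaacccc
MYLIP: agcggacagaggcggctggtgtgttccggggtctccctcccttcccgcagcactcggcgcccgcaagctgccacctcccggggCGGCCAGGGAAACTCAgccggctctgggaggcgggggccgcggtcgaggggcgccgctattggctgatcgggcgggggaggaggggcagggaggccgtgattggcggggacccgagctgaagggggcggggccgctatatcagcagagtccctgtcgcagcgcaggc
SREBF1: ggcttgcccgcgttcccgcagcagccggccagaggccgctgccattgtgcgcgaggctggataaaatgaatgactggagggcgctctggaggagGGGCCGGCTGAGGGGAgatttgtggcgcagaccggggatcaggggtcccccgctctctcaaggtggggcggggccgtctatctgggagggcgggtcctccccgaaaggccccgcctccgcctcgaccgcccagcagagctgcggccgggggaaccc

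The ABCA1 stretch ran from 69 to 54 bases before the start, on the opposite strand to the gene, with 2 mismatches to the repeat. Of all 35116 RefSeq promoters searched the same way, 2.03% held a stretch with 2 or fewer mismatches. The best stretch of MYLIP had 4 mismatches, and 66.1% of promoters did at least as well, while that of SREBF1 had 5, which 99.2% of promoters reached. A match describes letters and is not evidence of binding, and the absence of one says only that these letters are not in this window.

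NR1H2 (LXR beta, the form found in most tissues) was at 75.1, 129 and 145 CPM (read counts scaled to library size by TMM) in the PBS libraries, at 193, 221 and 221 in the P-DXd-titled libraries and at 207, 204 and 226 in the T-DXd-titled libraries. Every treated library lay above every PBS library, and PBS replicate 1 lay well below the others. The level was 116 ± 36.4 CPM (SD, n = 3) in PBS and 212 ± 12.8 (SD, n = 6) with treatment, a fitted log2 fold change of 0.87 ± 0.17 (SE). In bulk tumor RNA, more cells of a kind and more RNA per cell cannot be told apart, here and for each gene that follows.

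NR1H3 (LXR alpha, the form of liver, fat and macrophages) was lower and did not separate the groups. It was at 14.7, 18.7 and 20.7 CPM in PBS, 21.8, 18.9 and 20.0 in P-DXd-titled and 18.7, 17.3 and 21.3 in T-DXd-titled libraries. The ranges overlapped, with a log2 fold change of 0.12 ± 0.12 (SE).

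Of the efflux transporters, ABCA1 passes cholesterol and phospholipid to lipid-poor apolipoproteins. It was at 17.9, 11.0 and 13.1 CPM in PBS, against 53.8, 54.0 and 57.9 in P-DXd-titled and 64.2, 56.3 and 55.0 in T-DXd-titled libraries. The lowest treated library was far above the highest PBS library, and the log2 fold change was 2.02 ± 0.14 (SE), or 4.06-fold.

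ABCG1, which passes cholesterol on to mature lipoproteins, was nearly silent in PBS tumors at 1.83, 1.37 and 1.25 CPM. It stood at 16.9, 13.4 and 14.3 CPM in P-DXd-titled and 14.4, 17.2 and 18.0 in T-DXd-titled libraries. No treated library came near the PBS range, and the log2 fold change of 3.41 ± 0.17 (SE), or 10.6-fold, was the largest among the 10 genes.

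Neither lipid carrier separated the groups. APOE, the apolipoprotein that accepts cellular cholesterol, was at 21.2, 14.0 and 13.9 CPM in PBS, 14.7, 18.4 and 25.1 in P-DXd-titled and 21.1, 24.8 and 22.0 in T-DXd-titled libraries. PBS replicate 1 was inside the treated range, so the groups overlapped, with a log2 fold change of 0.36 ± 0.19 (SE). PLTP, which moves phospholipid between lipoproteins, was at 89.6, 109 and 103 CPM in PBS, 99.9, 94.4 and 108 in P-DXd-titled and 92.8, 103 and 111 in T-DXd-titled libraries. Its groups lay on top of each other, with a log2 fold change of 0.017 ± 0.084 (SE).

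MYLIP, also known as IDOL, was at 11.8, 12.0 and 12.3 CPM in PBS, 49.8, 54.4 and 47.4 in P-DXd-titled and 50.1, 46.6 and 50.2 in T-DXd-titled libraries. The 3 PBS libraries were almost the same, every treated library was far above them, and the log2 fold change was 2.05 ± 0.075 (SE), or 4.14-fold.

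SREBF1 was at 50.7, 53.9 and 55.3 CPM in PBS, 109, 111 and 115 in P-DXd-titled and 104, 104 and 115 in T-DXd-titled libraries. Again the groups stood apart with little spread inside each, at a log2 fold change of 1.04 ± 0.067 (SE). The counts are per gene, so the SREBP-1a and SREBP-1c transcripts of this gene were not separated.

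LPCAT3 loads polyunsaturated fatty acids into membrane phospholipids, and SMPDL3A is a secreted phosphodiesterase. LPCAT3 was at 23.0, 25.7 and 25.2 CPM in PBS, 34.4, 29.5 and 30.8 in P-DXd-titled and 29.7, 31.3 and 31.8 in T-DXd-titled libraries. Its ranges did not overlap, but the log2 fold change was small, at 0.34 ± 0.077 (SE). SMPDL3A was at 3.69, 5.36 and 5.63 CPM in PBS, 9.29, 10.2 and 8.99 in P-DXd-titled and 9.45, 10.7 and 9.75 in T-DXd-titled libraries. It was low throughout, higher in every treated library than in any PBS library, and had a log2 fold change of 0.99 ± 0.15 (SE).

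**Figure D1:**
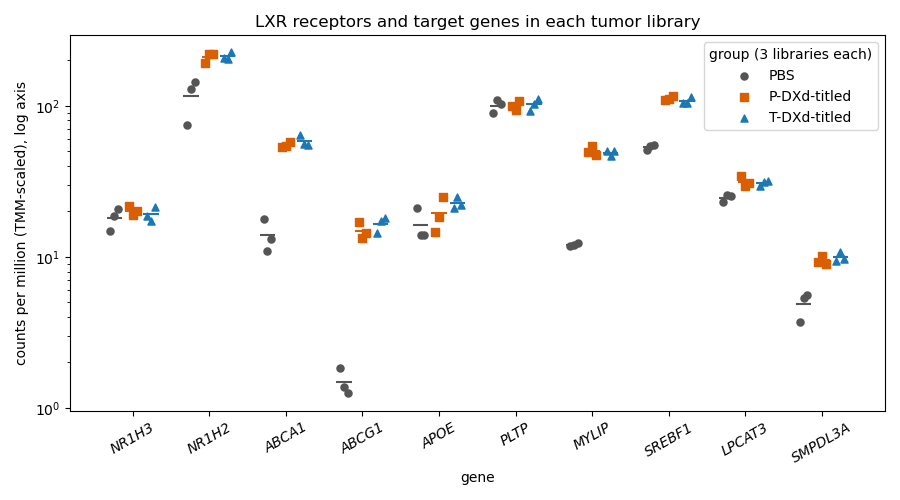
TMM-scaled CPM (log axis) of the 10 genes in each of 9 libraries, with 3 PBS (circles), 3 P-DXd-titled (squares) and 3 T-DXd-titled (triangles) libraries per gene and bars at group means. ABCG1 rests at 1.25 to 1.83 in PBS and 13.4 to 18.0 with treatment, while the 3 groups of PLTP coincide.

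Calls needed an adjusted p of at most 0.05 and a fold change of at least 1.5. With both conjugates pooled, 6 of the 10 members were called higher and 0 lower, where 15.2% of the 15070 genes tested were called higher and 17.1% lower. The 6 were NR1H2, ABCA1, ABCG1, MYLIP, SREBF1 and SMPDL3A. Ranges did not overlap for 7 members, the 6 and LPCAT3, all higher with treatment, and for 50.5% of all genes tested. The median log2 fold change was 0.93 over the members and -0.014 over all genes. These counts bear on the contrast by which the genes were chosen and describe it only.

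Each conjugate alone gave the same 6 members higher and 0 lower, against 11.2% of genes called higher and 13.8% lower for the P-DXd-titled group and 13.1% higher and 15.5% lower for the T-DXd-titled group. Both comparisons used the same PBS libraries. The log2 fold change of ABCG1 was 3.35 ± 0.22 (SE) in the P-DXd-titled and 3.48 ± 0.20 in the T-DXd-titled group. That of ABCA1 was 2.00 ± 0.19 and 2.07 ± 0.19, and that of MYLIP 2.09 ± 0.11 and 2.03 ± 0.087. With 1 conjugate alone, some calls of NR1H2 and SMPDL3A were lost on leaving out 1 library, though the log2 fold changes stayed close. In the full fits NR1H2 had 0.88 in the P-DXd-titled and 0.87 in the T-DXd-titled group, and SMPDL3A had 0.97 in the P-DXd-titled group. NR1H2 was not called for the P-DXd-titled group without PBS replicate 2 or without any 1 of its own 3 libraries (log2 fold changes of 0.95, 0.94, 0.85 and 0.85). SMPDL3A was not called for that group without its replicate 2 or 3 (0.92 and 1.01). In the T-DXd-titled group NR1H2 was not called without any 1 of its own 3 libraries (0.89, 0.90 and 0.82).

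PBS replicate 1 stood apart from the other PBS libraries. A chi-square of counts was 316 and 388 per gene between it and PBS replicates 2 and 3, and 37.5 between those. Without it, ABCA1 and ABCG1 had log2 fold changes of 2.25 and 3.59 with both conjugates pooled, and NR1H2 had 0.64. APOE was then called higher, at 0.60 with both conjugates pooled and 0.70 in the T-DXd-titled group.

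**Figure D2:**
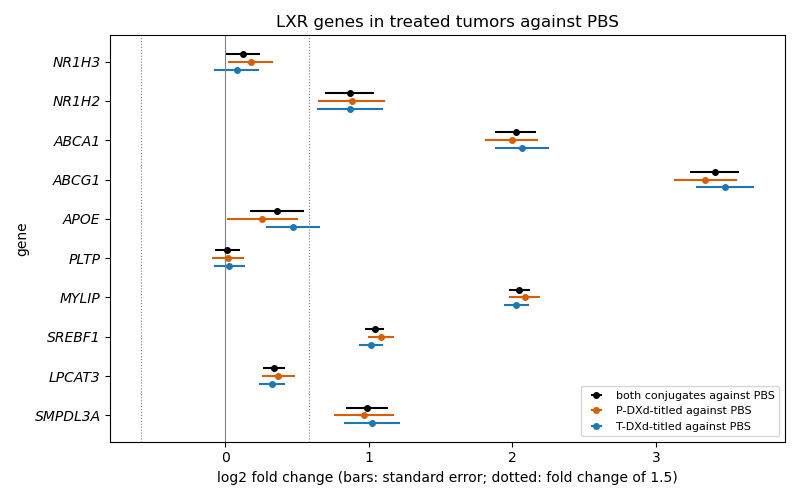
Log2 fold change against PBS (points, with bars of 1 standard error) for the 10 genes, with all 6 treated libraries pooled (black), the 3 P-DXd-titled (orange) and the 3 T-DXd-titled libraries (blue), and dotted lines at a fold change of 1.5. ABCG1 (3.41), MYLIP (2.05) and ABCA1 (2.02) lie farthest right and PLTP (0.017) at 0.

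Per kilobase of exon, which allows a rough comparison of genes, the order of the members shifted with treatment. The lengths came from GENCODE v44, where no member's coordinates matched those listed with the counts, so comparison between genes is approximate. In PBS tumors the highest levels were those of PLTP and NR1H2, at 39.5 ± 3.85 and 21.8 ± 6.82 CPM per kb (SD, n = 3). APOE (7.59 ± 1.96), SREBF1 (6.47 ± 0.29) and LPCAT3 (5.25 ± 0.30) followed, and of these the spreads of APOE and SREBF1 overlapped. NR1H3 (3.98 ± 0.67) and MYLIP (3.91 ± 0.083) did not differ beyond their spread. SMPDL3A (2.08 ± 0.45), ABCA1 (1.23 ± 0.31) and ABCG1 (0.242 ± 0.050) closed the order. In the 6 treated libraries PLTP (40.0 ± 2.87) and NR1H2 (39.7 ± 2.39) were level with each other. MYLIP (16.2 ± 0.89) and SREBF1 (13.3 ± 0.61) came after these, above APOE (9.75 ± 1.84). LPCAT3 (6.65 ± 0.38) and ABCA1 (5.01 ± 0.34) were lower still. NR1H3 (4.34 ± 0.38) and SMPDL3A (4.14 ± 0.27) were within their spread of each other, and the ranges of ABCA1 and NR1H3 overlapped. ABCG1 (2.57 ± 0.31) remained the lowest per kilobase in spite of its large fold change.

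The difference between the conjugates did not enter the choice of genes and was tested. Of the 10 members, 0 were called by edgeR's quasi-likelihood test, 0 had an unadjusted p under 0.05 and 0 were called by DESeq2, and every adjusted p rounded to 1.00. Of all 14653 genes tested, 0.0273% were called and 540 had an unadjusted p under 0.05 in edgeR's test. The ranges of the 3 P-DXd-titled and 3 T-DXd-titled libraries overlapped for all 10 members, and failed to overlap for 8.08% of all genes. The log2 difference (P-DXd-titled minus T-DXd-titled) was -0.08 for ABCA1, with a 95% interval of -0.25 to 0.09, and -0.15 for ABCG1, with one of -0.41 to 0.11. It was 0.046 for MYLIP, with an interval of -0.12 to 0.21. The widest interval was that of APOE, -0.59 to 0.14 around -0.22, and it alone reached past a fold change of 1.5. The intervals of the other 9 members lay inside 1.5-fold in both directions. Since the titles and treatment fields disagree, the sign of these differences cannot be tied to one conjugate.

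**Figure D3:**
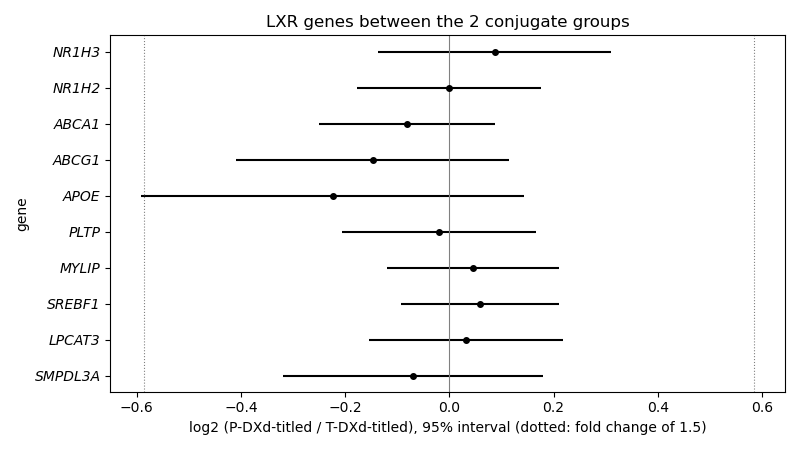
Log2 ratio of the P-DXd-titled over the T-DXd-titled group (points, with 95% intervals, 3 libraries a group) for the 10 genes, with dotted lines at a fold change of 1.5. Every interval spans 0, and that of APOE, from -0.59 to 0.14, is the widest.

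Around these members, 99 further genes of sterol handling were grouped into 7 lists by role, of which 89 passed the filter. With both conjugates pooled, 10 rose and 26 fell, beside 15.2% of all genes tested called higher and 17.1% called lower. The same shares stand beside the counts of each list below. The median log2 fold change of the 89 was -0.17, against -0.014 over all genes tested. The adjusted p-values that follow are from edgeR's quasi-likelihood test over all genes. The lists were chosen with earlier results of these data known, and most genes are named by their size of change in this contrast. These p-values therefore describe the named genes and are not independent tests of them.

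Of 19 other target genes of LXR, 13 were tested, 1 rose, 5 fell and 7 were not called, beside 15.2% of all genes called higher and 17.1% called lower. FADS1, a fatty acid desaturase, fell from 157 to 174 CPM in PBS to 73.5 to 89.3 with treatment, a log2 fold change of -1.05 ± 0.077 (SE, adjusted p = 4.4e-06). FASN, fatty acid synthase and a joint target with SREBF1, had -0.70 ± 0.093 (adjusted p = 0.00014), a call that was lost at -0.55 without PBS replicate 1. The gene that rose was LPL, lipoprotein lipase, from a mean of 0.291 to 1.24 CPM, and APOC1 and MLXIPL also fell, all 3 low and named after their values were seen. SCD, the desaturase that makes oleate, was not called, at 0.09 ± 0.12 (SE).

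Few partners of the receptors were called, though 9 had an unadjusted p under 0.05 in edgeR, as had 9204 of all 15070 genes tested. Of 15 partners and coregulators listed, 14 were tested. Of these 1 rose and 1 fell, both close to the 1.5-fold limit, beside 15.2% and 17.1% of all genes. RXRB, a retinoid X receptor, had a log2 fold change of 0.59 ± 0.064 (SE, adjusted p = 3.9e-05), and its call was lost without T-DXd-titled replicate 1, at 0.58.

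Among enzymes that make or clear oxysterols and desmosterol, the sterols that bind LXR, 9 of 10 were tested. Of these 3 rose and 3 fell, beside 15.2% and 17.1% of all genes. CYP27A1, which makes 27-hydroxycholesterol, rose from 0.295 to 3.39 CPM in PBS to 24.1 to 34.7 with treatment, a log2 fold change of 3.87 ± 0.55 (SE, adjusted p = 0.00020). That value was 4.58 without PBS replicate 3 and 3.39 without PBS replicate 1. SULT2B1, which adds sulfate to sterols, rose by 1.505 ± 0.43 on the log2 scale (adjusted p = 0.012), and HSD3B7, an enzyme of bile acid synthesis that also clears oxysterols, by 1.12 ± 0.26 (adjusted p = 0.0044). The 3 that fell were CYP46A1 (-1.16), DHCR7 (-0.69) and EBP (-0.61), named after their values were seen.

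Of 23 genes of the SREBP2 pathway and cholesterol synthesis, all tested, 0 were called higher and 10 lower, beside 15.2% and 17.1% of all genes. Their median log2 fold change was -0.48. The fold change was positive for 6 of the 23, among them PMVK (0.495, adjusted p = 0.00093) and SCAP (0.48, adjusted p = 0.00077), which missed the call on the fold limit alone. ACAT2, which makes acetoacetyl-CoA at the start of the pathway, fell by 1.37 ± 0.12 on the log2 scale (adjusted p = 1.2e-05), and SQLE, squalene epoxidase, fell by 1.297 ± 0.081 (adjusted p = 3.2e-06). HMGCS1, INSIG1, IDI1, CYP51A1, MVK, MVD and SREBF2 itself fell as well.

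Among the lipoprotein receptors that MYLIP is known to send for degradation, the transcript of LRP8 fell by 1.46 ± 0.19 on the log2 scale (adjusted p = 0.00011). LRP8 ran from 21.6 to 37.7 CPM in PBS and from 8.27 to 12.8 with treatment, without overlap. VLDLR was not called, at 2.80 ± 1.44 (SE), with overlapping ranges. It was at 0.57 to 0.68 CPM in PBS and 0.61 to 1.21 in T-DXd-titled libraries. The P-DXd-titled group had a median of 0.88 and a maximum of 22.9, so the estimate leaned on 1 library. Receptor protein was not measured in these files.

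In sterol transport and storage, 18 of 19 genes were tested, 2 rose and 3 fell, beside 15.2% and 17.1% of all genes. STARD4, which carries cholesterol between membranes, fell from 33.6 to 40.1 CPM in PBS to 5.08 to 6.99 with treatment, a log2 fold change of -2.62 ± 0.12 (SE, adjusted p = 7.0e-07). CAV1, the coat protein of caveolae, fell by 2.24 ± 0.16 on the log2 scale (adjusted p = 4.3e-06) and GRAMD1B, a sterol carrier at membrane contacts, fell by 1.65 ± 0.20 (adjusted p = 6.7e-05). The genes that rose were NPC2 (0.84), which hands cholesterol out of lysosomes, and GRAMD1C (0.80), named after their values were seen.

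Of 10 relatives of LPCAT3, SMPDL3A and PLTP, 9 were tested, 3 rose and 2 fell, beside 15.2% and 17.1% of all genes. LPCAT2 rose from a mean of 1.12 to 3.44 CPM (log2 fold change 1.62 ± 0.21, SE, adjusted p = 0.00013). SMPDL3B, the closest relative of SMPDL3A, rose by 1.396 ± 0.15 on the log2 scale (adjusted p = 4.5e-05), and SMPD1, the lysosomal sphingomyelinase, by 1.03 ± 0.15 (adjusted p = 0.00021). LPCAT4 (-0.66) and MBOAT1 (-0.58) fell, and were named after their values were seen. Between the conjugates 0 of the 89 genes in the 7 lists were called by edgeR or by DESeq2. An unadjusted p under 0.05 in edgeR was found for 4 of the 89, and for 540 of all 14653 genes tested.

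**Figure D4:**
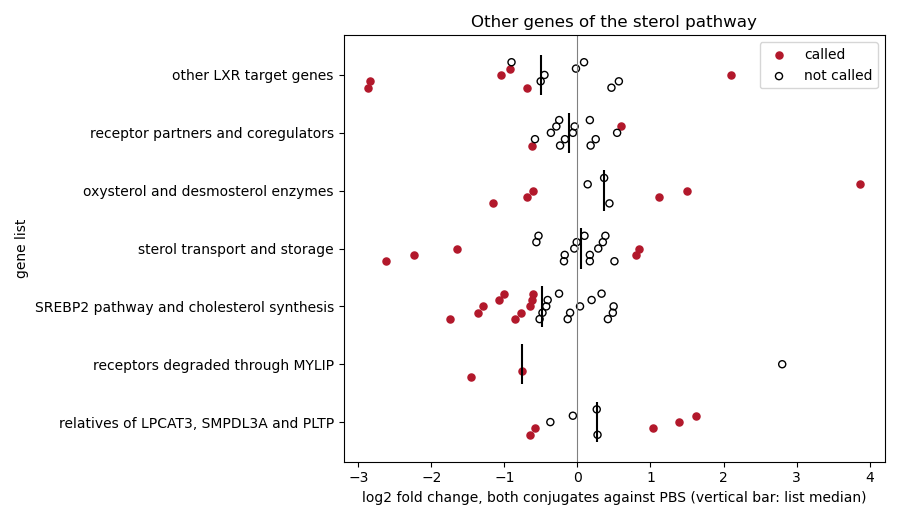
Log2 fold change with both conjugates pooled against PBS for the 89 tested genes of 7 sterol lists, with called genes filled, other genes open and a vertical bar at each list's median. The SREBP2 list has 10 filled points, all left of 0, and STARD4 (-2.62) and CYP27A1 (3.87) stand far out in their lists.

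The tumors contain mouse cells, and the study's methods do not state whether mouse reads were removed, so marker levels are given beside the members. The summed level of the 12 macrophage markers listed in the tables, of 17, was 10.2 to 12.9 CPM in PBS, 22.3 to 32.4 in P-DXd-titled and 32.9 to 43.7 in T-DXd-titled libraries. Much of that difference was LYZ, at a mean of 1.07 CPM in PBS and 10.3 with treatment, and CSF1R, at 2.68 and 9.76. ADGRE1 and MSR1 fell, with log2 fold changes of -1.26 and -1.30. The macrophage markers CD163, MRC1, TYROBP, C1QA and C1QC were not among the genes analysed here. Of the 11 tested 6 rose and 2 fell, beside 15.2% and 17.1% of all genes. The 5 adipocyte markers listed, of 7, summed to 12.4 to 17.8 CPM in PBS, 45.6 to 70.5 in P-DXd-titled and 54.2 to 60.0 in T-DXd-titled libraries, without ADIPOQ and LEP, which were not analysed here. Most of that difference was CFD, at a mean of 6.51 CPM in PBS and 41.5 with treatment. Of the 4 adipocyte markers tested, CFD and PLIN4 rose and PLIN1 and CIDEC were not called, and FABP4 did not pass the filter. The part of either cell type in the levels of ABCA1, ABCG1 and the other members was not tested.

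The 11 fibroblast markers summed to 1072 to 2078 CPM in PBS, 1232 to 2136 in P-DXd-titled and 2073 to 2234 in T-DXd-titled libraries, so PBS overlapped both treated groups, through PBS replicate 1. The 7 skeletal muscle markers summed to 0.90 to 36.4 CPM in PBS and 155 to 200 in T-DXd-titled libraries. In the P-DXd-titled group they summed to 57.5, 195 and, in replicate 2, 3378. All 7 muscle markers were called higher with both conjugates pooled. Without P-DXd-titled replicate 2 the pooled comparison still called 6 members higher. The 6 markers used for PC3 cells, 5 of them epithelial (KRT8, KRT18, KRT19, EPCAM and CDH1) with VIM, which stromal cells also make, summed to 1935 to 2695 CPM in PBS and to 3454 to 4021 in treated libraries, and of these KRT8 and KRT18 rose.

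**Figure D5:**
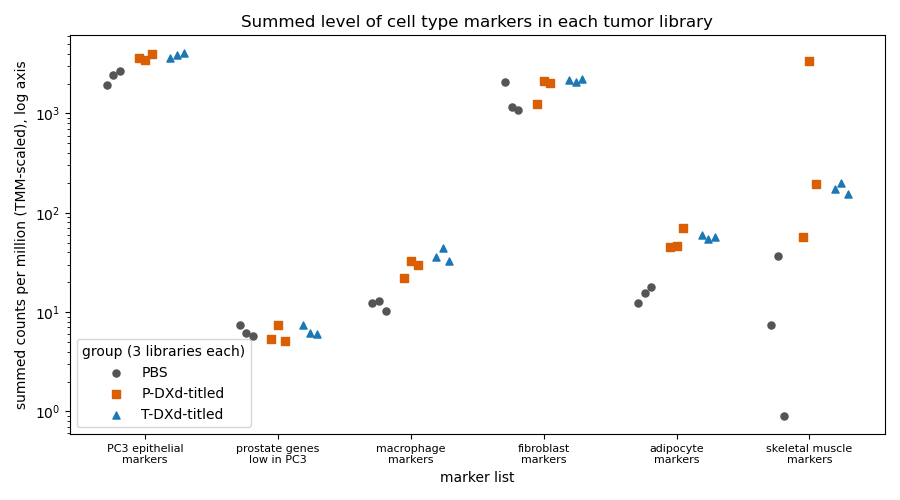
Summed TMM-scaled CPM (log axis) of 6 marker lists in each of 9 libraries, with 3 PBS (circles), 3 P-DXd-titled (squares) and 3 T-DXd-titled (triangles) libraries per list. Macrophage and adipocyte sums are higher in every treated library than in any PBS library, and P-DXd-titled replicate 2 reaches 3378 for skeletal muscle.

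Among the 5 genes whose levels were most like those of ABCA1, of 9780 with a mean of at least 10 CPM, were IFNGR1, TMEM66, MARCKS and NUDT4, with Pearson's r of 0.989 to 0.994 over the 9 libraries, which share depth and scaling. For these the PBS and treated ranges stood apart, so r over these libraries describes mainly that gap. IFNGR1, a chain of the interferon gamma receptor, was at 46.5 to 52.5 CPM in PBS and at 71.2 to 74.9 in treated libraries.

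Some members share their place with another listed gene, and the methods do not state whether counting used strand. PLTP overlaps CTSA, which went from 155 ± 27.5 to 316 ± 24.6 CPM (SD), and NR1H3 overlaps ACP2, which went from 42.0 ± 6.23 to 76.7 ± 4.39. LPCAT3 overlaps C1S (69.3 ± 24.3 to 121 ± 18.3) and EMG1 (29.3 ± 4.73 to 24.6 ± 2.26), SREBF1 overlaps RAI1 (54.5 ± 5.14 to 52.6 ± 4.10), and NR1H2 overlaps NAPSA, whose means were under 2 CPM. ABCA1, ABCG1, APOE, MYLIP and SMPDL3A overlapped no listed gene. The tables place ABCA1 at chromosome 9, 107543283 to 107690518, ABCG1 at chromosome 21, 43619799 to 43717354, and MYLIP at chromosome 6, 16129356 to 16148479, on a build they do not name and that differs from the RefSeq build above.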

How the data were processed

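The deposited files were 2 tables of raw read counts per gene, of 16098 and 16114 genes, each with the 3 PBS libraries and 1 conjugate group. Per the study's methods, the authors used Cutadapt for trimming, STAR for alignment and featureCounts for the count of reads per gene. The methods name GRCh38, but none of the members' listed coordinates matched GENCODE v44 on that build.

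Counts (of the whole table for 1 conjugate against PBS, and of the 16008 shared genes otherwise) were tested with edgeR 4.0.16 (R 4.3.3) after TMM normalization and filterByExpr, by its quasi-likelihood F test (two-sided), with p-values adjusted by Benjamini-Hochberg over all genes. Standard errors were the log2 fold change over the square root of F, and 95% intervals used the t distribution. CPM were TMM-scaled and carry counting error beside the spread shown. Exon lengths were unions of GENCODE v44 exons. The procedure was tested on simulated data. Alternatives were DESeq2 1.42.0, RLE factors, 2 other filters, no fold minimum, glmTreat, the first digit of the animal code in the titles as a covariate, a joint fit of 9 libraries and leaving out each library. Members and lists were chosen with earlier results of these data known. From each wider list, up to 3 genes called with both conjugates pooled and at a mean of at least 1 CPM were named by size of change, together with the 5 genes most like ABCA1. Some genes of these lists are not reported here.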

Additional observations from a re-analysis of the deposited data

How the results depend on the processing

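Counts of members called with both conjugates pooled ran from 5 to 7 over all alternatives, and from 6 to 7 when 1 library was left out. With glmTreat, where the null is a change of up to 1.5-fold, NR1H2 was not called with both conjugates pooled, and with either conjugate alone neither NR1H2 nor SMPDL3A was. With no fold minimum LPCAT3 was called higher in all 3 comparisons with PBS. The count of wider sterol genes called with both conjugates pooled went from 36 to 61 with no fold minimum and to 20 with glmTreat, where FASN, RXRB, SULT2B1 and HSD3B7 were not called, and it ran from 31 to 38 when 1 library was left out. RXRB was also not called with the digit of the animal code as a covariate, at 0.584, just under the fold limit of 0.585 on the log2 scale. Between the conjugates, 0 members and 0 wider genes were called under every alternative run. Small differences there changed sign: with the digit covariate NR1H2 was at 0.024 and PLTP at 0.043, and on leaving out 1 library at a time NR1H2 ran from -0.034 to 0.063, PLTP from -0.086 to 0.042, LPCAT3 from -0.033 to 0.077 and MYLIP from -0.011 to 0.088. A test of 3 against 3 libraries limits how small a difference could be called. Between the conjugates, P-DXd-titled replicate 2 stood apart in its group. Its chi-square of counts was 126 and 106 per gene against replicates 1 and 3, and 39.8 between those. PBS replicate 1, far from its group, entered only the comparisons with PBS.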

Other observations

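Several sterol genes lay below the 1.5-fold limit with both conjugates pooled but had adjusted p-values under 0.05 in edgeR's quasi-likelihood test, and are given as values chosen after they were seen. RNF145, an LXR-induced ubiquitin ligase, had a log2 fold change of 0.47 ± 0.11 (SE). NCOA2, a coactivator, had 0.54 ± 0.17, and NRIP1, a corepressor, had -0.58 ± 0.11. SCAP, the escort of the SREBP proteins, had 0.48 ± 0.085. SCARB1, the HDL receptor, had -0.53 ± 0.077.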
